A study of Mus musculus with 16 samples.

Results

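Ikaros-low monocyte-DC progenitors (IkL/L MDPs) were compared with wild-type common DC progenitors (WT CDPs), the next stage of the normal pathway. The comparison took the 4 IkL/L MDP arrays and the 4 WT CDP arrays, each with 2 DMSO and 2 GSI arrays, so 8 of the 16 arrays of the series, and every difference is the mean of the IkL/L MDP arrays minus the mean of the WT CDP arrays. It asks how far MDPs that lack normal Ikaros levels have come to look like the following normal stage, and where they remain apart from it. The series measured WT and IkL/L MDPs and CDPs on Affymetrix Mouse Gene ST arrays after 24 h of culture, in 8 groups of 2 arrays.

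IkL/L MDPs came from young adult mice homozygous for a hypomorphic germline allele of Ikzf1, which lowers Ikaros in every cell of the mouse, and WT CDPs from mice with normal Ikaros. Both were sorted from bone marrow as Lin-Sca1-CD135+ cells, MDPs as CD117hi CD115+ and CDPs as CD117lo CD115+, and the lineage stain removed cells bearing CD11b, CD11c, Gr1, B220 or NK1.1. The CD45.2+ cells were then kept with unfractionated CD45.1+ WT marrow cells as support in Flt3L-conditioned medium, with the vehicle DMSO or with 5 uM of the gamma-secretase inhibitor (GSI) Compound E, and CD45.2+ cells were sorted again for RNA. MDP and CDP thus name the cells put into culture, and their stage at harvest was not measured. Each condition used 2 mice. The labels do not say whether arrays with the same number share a mouse, so the p-values measure only the spread between these arrays.

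MDPs can give rise to monocytes and macrophages as well as DCs, whereas CDPs are restricted to conventional DCs (cDCs) and plasmacytoid DCs (pDCs). Along this path progenitors lose the granule proteases of myeloid progenitors and acquire the machinery that loads peptides on MHC class II molecules. Ikaros is a zinc finger protein that binds DNA and can repress or activate genes, and it is needed for lymphoid and pDC development.

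In overall profile IkL/L MDP arrays were about as close to WT CDP arrays as WT CDP arrays were to each other. Pearson's r across the 19938 genes, which are not independent replicates, ran from 0.975 to 0.992 over the 16 pairs of an IkL/L MDP and a WT CDP array (median 0.985), and from 0.977 to 0.994 over the 6 pairs of WT CDP arrays (median 0.987). The 6 pairs of IkL/L MDP arrays were tighter, at 0.993 to 0.996. WT MDP arrays were nearly as close to WT CDP arrays, at 0.974 to 0.991 (median 0.983). The likeness to WT CDPs was thus not particular to IkL/L MDPs. Pairs of an IkL/L MDP and a WT MDP array lay at 0.983 to 0.992 (median 0.989), and a median of 268 genes differed by more than 2-fold between the arrays of such a pair, against a median of 400 genes between an IkL/L MDP and a WT CDP array and 498 between a WT CDP and a WT MDP array. Within pairs of WT CDP arrays that median was 324 genes. All these pairs share arrays, so the figures are descriptions. Array medians ran from 4.52 to 4.65 on the log2 scale over all 16 arrays.

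The WT CDP arrays differed among themselves in the genes of myeloid granules. Mpo, the myeloperoxidase of primary granules, was at 11.67 in WT CDP DMSO 2 and at 7.28 to 8.17 in the other 3 WT CDP arrays. The Y-linked gene Eif2s3y was at 6.90 and 6.74 in the WT CDP arrays numbered 1 and at 3.16 and 3.06 in those numbered 2. It was at 7.04 in IkL/L MDP DMSO 2 and at 3.33 in IkL/L MDP GSI 2, although these share a number, and the X-linked transcript Xist was at 7.80 to 9.37 in all 8 arrays. Both WT CDP arrays of a number were therefore left out in turn, which leaves 1 array in each WT CDP group. The difference in Mpo was then 2.51 without number 1 and 3.98 without number 2, against 3.24 with all arrays. Many genes called with all arrays lost their call in each case, and others gained one.

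Of the 19938 genes tested with limma, 180 (0.903%) were higher in IkL/L MDPs than in WT CDPs and 113 (0.567%) were lower, at a Benjamini-Hochberg adjusted p under 0.05. For 19040 genes (95.5%) the 95% interval of the difference lay within 2-fold in either direction, and the median difference over all genes was -0.003 on the log2 scale. The 4 and 4 arrays did not overlap for 1549 genes (7.77%), 917 with IkL/L MDPs higher and 632 with them lower. The unadjusted limma p was under 0.05 for 2413 genes. The same fit called 166 genes (0.833%) between WT CDPs and WT MDPs, 135 of them higher in WT CDPs, and 119 genes (0.597%) between IkL/L MDPs and WT MDPs, 107 of them higher in IkL/L MDPs. The first of these shares its WT CDP arrays and the second its IkL/L MDP arrays with the comparison described here, so their values are set side by side and not tested against each other.

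The calls rested on few independent samples. When the DMSO and GSI arrays of a population and number were averaged first, which treats them as 1 sample, 6 genes were called higher and 1 lower. With a correlation estimated between the DMSO and GSI arrays of a population and number (0.292) the calls were 86 and 37. Of the 30 genes with the largest changes, Elane, Ms4a3, Mgst2, Il1f9, Klrd1, P2ry10, Hpgds and Id3 then lost their call. In the fit of the 8 compared arrays alone the calls were 42 and 14. Without IkL/L MDP DMSO 1 the calls were 49 and 16, and without IkL/L MDP GSI 1 they were 47 and 13, and in each case 20 of the 30 genes with the largest changes lost their call (highest adjusted p 0.195 and 0.185, limma). Of these 30, Ppic, Fcnb, Camp, Lrg1, Ltf, Ngp, Klrk1, Siglech, Samd9l and Tlr1 kept their call without any single array.

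**Figure D1:**
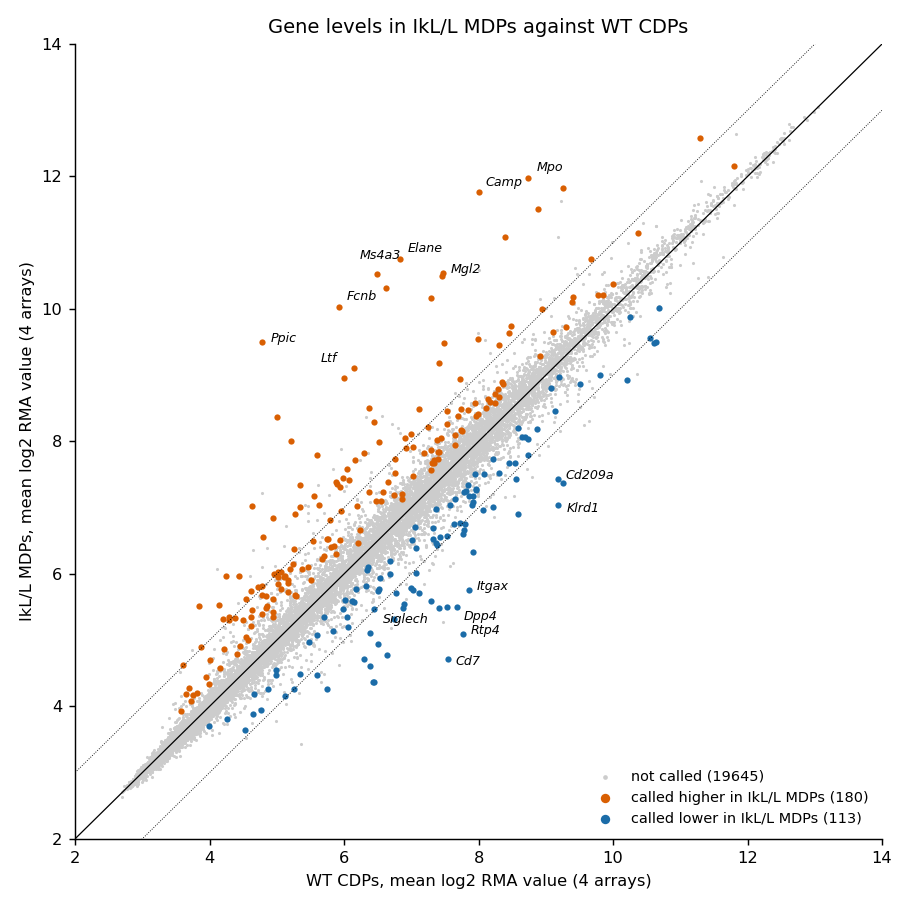
Mean log2 signal of the 4 IkL/L MDP arrays (vertical axis) against that of the 4 WT CDP arrays (horizontal axis), 1 point per gene, with the line of equality solid and 2-fold differences dotted. The 180 genes called higher in IkL/L MDPs are orange and the 113 called lower are blue, and 204 genes differ by more than 2-fold.

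How far IkL/L MDPs had moved along the normal MDP to CDP change was read on arrays that did not choose the genes. Differences between replicate arrays correlated between DMSO and GSI, at r = 0.476 in WT MDPs and 0.585 in WT CDPs. The reading was therefore not independent of the choice. With DMSO arrays, 159 genes were chosen as higher and 33 as lower in WT CDPs than in WT MDPs, and their levels were then taken from the GSI arrays. Among the 159 higher genes, the median level with GSI was 5.41 in WT MDPs, 6.20 in IkL/L MDPs and 7.12 in WT CDPs, so IkL/L MDPs lay between the WT stages, with a median difference of 0.53 from WT MDPs and -0.75 from WT CDPs. Of these genes 60 were nearer to WT CDPs and 99 nearer to WT MDPs, and 25 lay past the WT CDP level.

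The genes that normally go down mostly stayed nearer to the WT MDP level. Among the 33 lower genes, the median with GSI was 7.02 in WT MDPs, 7.0 in IkL/L MDPs and 5.39 in WT CDPs, and 31 of the 33 were nearer to WT MDPs. Of the 33, 20 lay between the WT stages, and the median difference from WT MDPs was -0.06. With the treatments exchanged, IkL/L MDPs were again between the stages for 189 genes higher in WT CDPs (medians 5.86, 6.59 and 7.26), and 63 of 84 lower genes were nearer to WT MDPs, at medians of 7.72 in WT MDPs, 8.04 in IkL/L MDPs and 7.04 in WT CDPs. Of the 84, 40 lay between the WT stages, and the median difference from WT MDPs was -0.03. The median differences from WT CDPs were then -0.57 and 0.57, against -0.75 and 1.38 above. These counts use the same arrays as the test across all genes and are given without a test.

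Examples from the GSI means show the range, and they were picked after their values were seen. H2-Aa, an MHC class II alpha chain, stood at 6.39 in WT MDPs, 10.77 in IkL/L MDPs and 11.67 in WT CDPs. Clec4n, the lectin dectin-2, stood at 4.72, 7.72 and 8.16 in the same order, and Gpnmb, a glycoprotein of macrophages and DCs, at 6.79, 8.76 and 8.50. These 3 genes had moved most of the way to the CDP level or past it. Siglech, a surface lectin of pDCs, stood at 4.80, 4.95 and 7.52, and Cd7 at 4.68, 4.74 and 7.84, close to the WT MDP level. Among the genes that are lower in WT CDPs, Elane, the neutrophil elastase, stood at 10.51, 10.75 and 5.79.

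**Figure D2:**
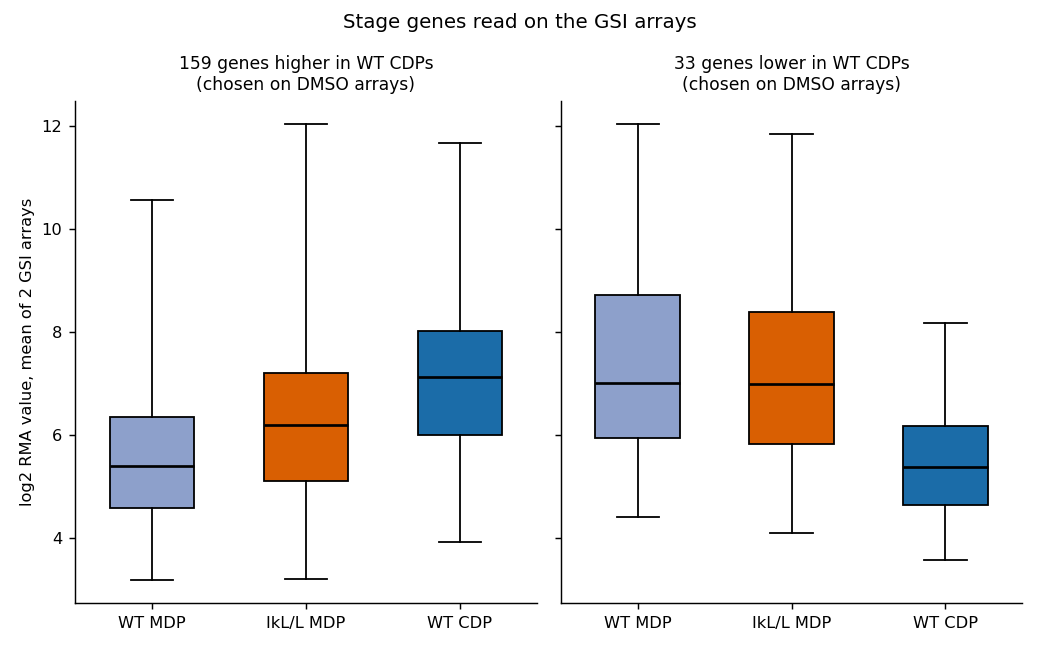
Mean log2 signal with GSI in WT MDPs, IkL/L MDPs and WT CDPs for the 159 genes higher and the 33 genes lower in WT CDPs than in WT MDPs by the DMSO arrays. Boxes span the quartiles with the median as a line, and whiskers reach the lowest and highest gene. IkL/L MDPs lie between the WT stages for the first set (median 6.20) and at the WT MDP level for the second (7.0 against 7.02).

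Promoters are printed for the 3 highest and 3 lowest genes of the ranking by fold with a RefSeq table entry (GRCm38.p6). The choice also skipped the genes of a whole chromosome, and Ppic, the largest rise, is not printed. Each promoter shows the sequence at the gene's start, 300 bases on its own strand and mostly upstream of the annotated start. Capitals mark TGGGAA, the core of Ikaros sites, and GAGGAA, the core bound by PU.1, an ETS factor of myeloid cells and DCs, on either strand, so that TTCCCA and TTCCTC are the same motifs read on the other strand. The 2 motifs cannot share a base. The regions are chr2:28084829-28085128 on the minus strand for Fcnb, chr19:11640802-11641101 on the minus strand for Ms4a3, chr10:79886062-79886361 on the plus strand for Elane, chr2:62412182-62412481 on the minus strand for Dpp4, chr7:128129300-128129599 on the plus strand for Itgax and chrX:107088242-107088541 on the plus strand for P2ry10, the first of its 2 listed promoters.
Fcnb: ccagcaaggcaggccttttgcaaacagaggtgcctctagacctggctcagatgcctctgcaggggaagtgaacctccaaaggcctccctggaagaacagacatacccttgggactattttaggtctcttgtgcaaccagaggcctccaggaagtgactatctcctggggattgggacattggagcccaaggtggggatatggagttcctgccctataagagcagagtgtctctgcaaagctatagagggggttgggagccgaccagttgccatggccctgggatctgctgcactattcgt
Ms4a3: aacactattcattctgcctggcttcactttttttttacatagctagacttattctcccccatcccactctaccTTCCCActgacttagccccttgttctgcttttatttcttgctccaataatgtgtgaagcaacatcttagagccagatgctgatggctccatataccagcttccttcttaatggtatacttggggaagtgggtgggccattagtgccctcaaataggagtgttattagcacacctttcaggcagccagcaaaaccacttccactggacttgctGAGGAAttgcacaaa
Elane: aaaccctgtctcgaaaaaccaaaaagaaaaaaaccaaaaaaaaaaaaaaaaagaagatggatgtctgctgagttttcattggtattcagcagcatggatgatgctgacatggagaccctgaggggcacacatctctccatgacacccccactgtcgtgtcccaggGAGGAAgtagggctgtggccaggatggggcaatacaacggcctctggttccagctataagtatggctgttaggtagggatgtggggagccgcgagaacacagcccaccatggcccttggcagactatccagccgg
Dpp4: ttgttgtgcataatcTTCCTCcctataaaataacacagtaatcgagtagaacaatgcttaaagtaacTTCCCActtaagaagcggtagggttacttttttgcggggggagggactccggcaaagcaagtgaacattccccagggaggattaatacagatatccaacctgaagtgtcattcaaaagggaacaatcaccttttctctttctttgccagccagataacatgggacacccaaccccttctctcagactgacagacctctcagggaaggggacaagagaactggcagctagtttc
Itgax: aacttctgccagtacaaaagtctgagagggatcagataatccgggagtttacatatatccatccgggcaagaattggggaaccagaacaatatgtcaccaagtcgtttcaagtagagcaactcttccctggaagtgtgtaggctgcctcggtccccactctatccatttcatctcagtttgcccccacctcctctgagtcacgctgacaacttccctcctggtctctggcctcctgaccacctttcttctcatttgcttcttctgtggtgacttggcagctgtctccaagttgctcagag
P2ry10: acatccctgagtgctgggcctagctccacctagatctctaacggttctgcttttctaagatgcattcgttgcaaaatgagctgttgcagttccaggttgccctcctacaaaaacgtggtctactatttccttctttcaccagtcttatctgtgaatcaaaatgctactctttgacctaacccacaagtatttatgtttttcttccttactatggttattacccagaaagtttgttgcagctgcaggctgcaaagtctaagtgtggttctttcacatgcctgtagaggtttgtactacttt
Ms4a3 and Dpp4 each held 1 of each motif, Elane held 1 GAGGAA, and the windows of Fcnb, Itgax and P2ry10 held neither. TGGGAA was found in 25.5% of the 27025 promoters listed, in 27.1% of 140 promoters of genes called higher and in 28.9% of 90 promoters of genes called lower. GAGGAA was found in 28.3%, 32.9% and 28.9% of them. The shares were close to those of all promoters, and a match is only a run of letters in this window.

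MHC class II genes stood between WT MDPs and WT CDPs in mean level. Of 9 measured, 5 were called higher in WT CDPs than in WT MDPs (median difference 2.03) and 4 higher in IkL/L MDPs than in WT MDPs (median 0.83). Over all 19938 genes these calls numbered 135 and 107. All 9 measured genes of class II presentation were lower in mean in IkL/L MDPs (median difference -0.82, against -0.003 over all genes). The arrays of 6 of them did not overlap (7.77% over all genes), and 1 passed the test (0.567% of all genes were called lower). H2-Ab1, a class II beta chain, was at 10.17 and 10.91 with DMSO and 10.24 and 10.61 with GSI in IkL/L MDPs, and at 11.29 and 11.33 with DMSO and 11.25 and 11.76 with GSI in WT CDPs. Every WT CDP array was above every IkL/L MDP array. The difference of -0.93 ± 0.26 (SE, log2, 95% interval -1.51 to -0.35) did not pass the test (adjusted p = 0.14). Against WT MDPs, H2-Ab1 differed by 4.91 in WT CDPs and by 3.98 in IkL/L MDPs. H2-Aa and Cd74, the invariant chain, followed the same order, with differences from WT CDPs of -0.85 ± 0.33 and -0.81 ± 0.30 (adjusted p = 0.308 and 0.295).

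Ciita, the transactivator that switches on the class II genes, was the class II gene that passed the test, and it did not pass with an estimated correlation (adjusted p = 0.0847). It was at 5.46, 6.05, 5.88 and 5.75 in IkL/L MDPs (DMSO 1 and 2, then GSI 1 and 2, an order kept from here on) and at 6.51, 6.74, 6.80 and 7.91 in WT CDPs. The groups did not overlap, WT CDP GSI 2 was the highest array, and Ciita was 2.30-fold lower in IkL/L MDPs (log2 -1.20 ± 0.24, adjusted p = 0.0386). Against WT MDPs it differed by 2.03 in WT CDPs (adjusted p = 0.0033) and by 0.83 in IkL/L MDPs (adjusted p = 0.25). Without IkL/L MDP DMSO 1 the call was lost (log2 -1.05, adjusted p = 0.169), and the list held no call without 6 of the 8 single arrays compared and 2 calls without WT CDP GSI 1 or IkL/L MDP DMSO 2. Ciita lost its call without 12 of the 16 single arrays of the series. The mean of the 9 genes per array was 5.66 to 6.26 in WT MDPs, 7.83 to 8.29 in IkL/L MDPs and 8.39 to 9.29 in WT CDPs. H2-Ab1, H2-Aa and Cd74 are named beyond the fixed rule, after their values were seen. In cells measured in bulk, fewer cells of a type and less RNA per cell cannot be told apart.

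Of 19 genes of endocytosis and lysosomes, 1 passed the test, the median difference was 0.12, and 15 had an interval within 2-fold, a smaller share than the 95.5% over all genes. Lgmn, the lysosomal protease legumain, was 3.01-fold lower in IkL/L MDPs (log2 -1.59 ± 0.31, adjusted p = 0.0389, 0.169 without IkL/L MDP DMSO 1 and 0.0688 with an estimated correlation), and its arrays did not overlap. Its call was lost without 12 of the 16 single arrays.

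C-type lectins, the sugar-binding receptors with which DCs and macrophages take up antigen, differed in both directions. Of 22 measured, 2 were higher and 2 lower (0.903% and 0.567% over all genes), and the median difference was -0.08. Mgl2, a galactose-type lectin of macrophages and cDCs (CD301b), was at 10.50, 10.54, 10.51 and 10.41 in IkL/L MDPs and at 5.38, 8.13, 7.94 and 8.39 in WT CDPs. All IkL/L MDP arrays were above all WT CDP arrays, and Mgl2 was 8.16-fold higher (log2 3.03 ± 0.45, adjusted p = 0.0119). The call was lost without IkL/L MDP GSI 1 (log2 3.0, adjusted p = 0.0623).

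Mrc1, the mannose receptor, was higher on average (log2 1.52 ± 0.25, adjusted p = 0.0173, and 0.0743 without IkL/L MDP GSI 1), but its arrays overlapped. It was at 7.15, 8.22, 7.90 and 8.01 in IkL/L MDPs and at 4.60, 4.91, 8.13 and 7.55 in WT CDPs, so only the WT CDP arrays with DMSO were low. The difference was 2.93 ± 0.35 with DMSO and 0.11 ± 0.35 with GSI. That change with treatment was -2.82 ± 0.50 and did not pass the test over all genes (adjusted p = 1).

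The 2 lectins that were lower belong to the DC-SIGN family. Cd209a, the mouse homologue of DC-SIGN, was at 7.39, 8.07, 7.19 and 7.09 in IkL/L MDPs and at 8.95, 8.87, 8.95 and 9.93 in WT CDPs, 3.34-fold lower (log2 -1.74 ± 0.28, adjusted p = 0.0147). It was nevertheless above WT MDPs in both, by 3.99 in WT CDPs and by 2.25 in IkL/L MDPs (adjusted p = 0.00587 for the latter). Cd209d was 2.41-fold lower (log2 -1.27 ± 0.24, adjusted p = 0.0313). Both calls were lost without IkL/L MDP DMSO 1, at adjusted p = 0.0753 and 0.142, and that of Cd209d with an estimated correlation (adjusted p = 0.0688). For Cd209d the difference was -0.46 ± 0.33 with DMSO and -2.08 ± 0.33 with GSI. That change with treatment was -1.61 ± 0.47 and did not pass the test over all genes.

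Primary granule genes, which myeloid progenitors express and CDPs lose, were at the WT MDP level in IkL/L MDPs. Their median difference from WT MDPs was 0.07 in IkL/L MDPs and -2.23 in WT CDPs. Against WT CDPs all 10 measured were higher in mean (median 2.51) and 4 passed the test (0.903% of all genes were called higher). The arrays of 4 did not overlap (7.77% over all genes). None of the 4 called genes passed with an estimated correlation, at adjusted p = 0.0584 for Elane, 0.102 for Ms4a3, 0.122 for Mpo and 0.11 for Ctsg. Elane was at 11.29, 10.22, 11.24 and 10.26 in IkL/L MDPs and at 6.14, 9.60, 6.38 and 5.20 in WT CDPs. The groups did not overlap, although WT CDP DMSO 2 came near. Elane was 15.2-fold higher (log2 3.92 ± 0.62, adjusted p = 0.0141). It differed from WT MDPs by -3.75 in WT CDPs (adjusted p = 0.0206) and by 0.17 in IkL/L MDPs (adjusted p = 0.965).

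Ms4a3, a membrane protein of granulocyte and monocyte progenitors, was at 10.74, 10.21, 10.82 and 10.34 in IkL/L MDPs and at 5.34, 9.42, 6.30 and 4.88 in WT CDPs. It was 16.5-fold higher (log2 4.04 ± 0.76, adjusted p = 0.0338). Mpo was 9.46-fold higher (log2 3.24 ± 0.64, adjusted p = 0.0389), at 12.26, 11.99, 12.31 and 11.37 against 7.85, 11.67, 8.17 and 7.28, and Ctsg, the protease cathepsin G, 6.43-fold higher (log2 2.69 ± 0.55, adjusted p = 0.0451). In both WT CDP DMSO 2 reached the IkL/L MDP range, and each lost its call without 14 of the 16 single arrays. Ms4a3 lost its call without 9 of the 16. Prtn3, proteinase 3, had a difference of 2.58 and did not pass the test (adjusted p = 0.0521).

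The number of primary granule genes called depended on single arrays. It was 5 without WT CDP DMSO 1 and 5 without WT CDP DMSO 2, in the latter case with Mpo at 4.20 (adjusted p = 0.000141) and Elane at 4.79 (adjusted p = 0.000366). It was 0 without WT CDP GSI 2, IkL/L MDP DMSO 1 or IkL/L MDP GSI 1, 1 without IkL/L MDP GSI 2, and 2 without WT CDP GSI 1 or IkL/L MDP DMSO 2. The median of the list ran from 1.81 to 3.07 without single arrays. The list mean per array was 9.77 to 9.90 in WT MDPs, 9.58 to 10.25 in IkL/L MDPs and 7.34 to 9.37 in WT CDPs.

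Genes of later neutrophil stages were higher in IkL/L MDPs than in either WT population. Of 19 measured, 7 were called higher than in WT CDPs (0.903% over all genes) and none lower. Against WT MDPs 5 were called higher (107 of all 19938 genes). Against WT CDPs the median difference was 1.06, and the arrays of 11 did not overlap (7.77% over all genes). Camp, the antimicrobial peptide cathelicidin of secondary granules, was at 12.12, 11.86, 11.85 and 11.21 in IkL/L MDPs and at 8.06, 8.07, 8.10 and 7.78 in WT CDPs. The groups lay far apart and Camp was 13.5-fold higher (log2 3.76 ± 0.29, adjusted p = 0.000464). It differed from WT MDPs by 0.10 in WT CDPs and by 3.86 in IkL/L MDPs (adjusted p = 0.000335 for the latter).

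Ltf, the iron-binding lactoferrin, was at 9.09, 10.00, 9.08 and 8.24 in IkL/L MDPs and at 5.75, 6.12, 6.52 and 6.21 in WT CDPs, 7.75-fold higher (log2 2.95 ± 0.38, adjusted p = 0.00667). Ngp, the neutrophilic granule protein, was at 11.96, 11.94, 11.92 and 11.49 against 9.28, 9.24, 9.93 and 8.55 (log2 2.58 ± 0.33, adjusted p = 0.00667). Lcn2, the siderophore-binding lipocalin, and Wfdc21 were 6.12-fold and 7.37-fold higher (adjusted p = 0.0147 and 0.0117), and neither overlapped between groups. S100a9, the calcium-binding calprotectin subunit, differed by 1.29 and Cebpe, the transcription factor of granulocyte maturation, by 1.63 (adjusted p = 0.00799 and 0.0427).

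Ly6g, the surface marker of mature neutrophils, was at 4.15, 4.51, 3.73 and 3.81 in IkL/L MDPs and at 3.14, 3.75, 3.31 and 3.72 in WT CDPs, all below the median signal of the arrays. The mean of the 19 genes per array was 8.51 to 8.95 in IkL/L MDPs, 7.0 to 7.74 in WT CDPs, 7.42 to 7.65 in WT MDPs and 8.53 to 9.84 in IkL/L CDPs. The calls numbered 4 without IkL/L MDP DMSO 1 or IkL/L MDP GSI 1, where Lcn2 and Wfdc21 reached adjusted p-values of 0.0743 and 0.0637. Whether neutrophils recovered with the sorted cells took part was not tested. S100a9, Cebpe, Prtn3 and Ly6g are named beyond the fixed rule, after their values were seen.

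**Figure D3:**
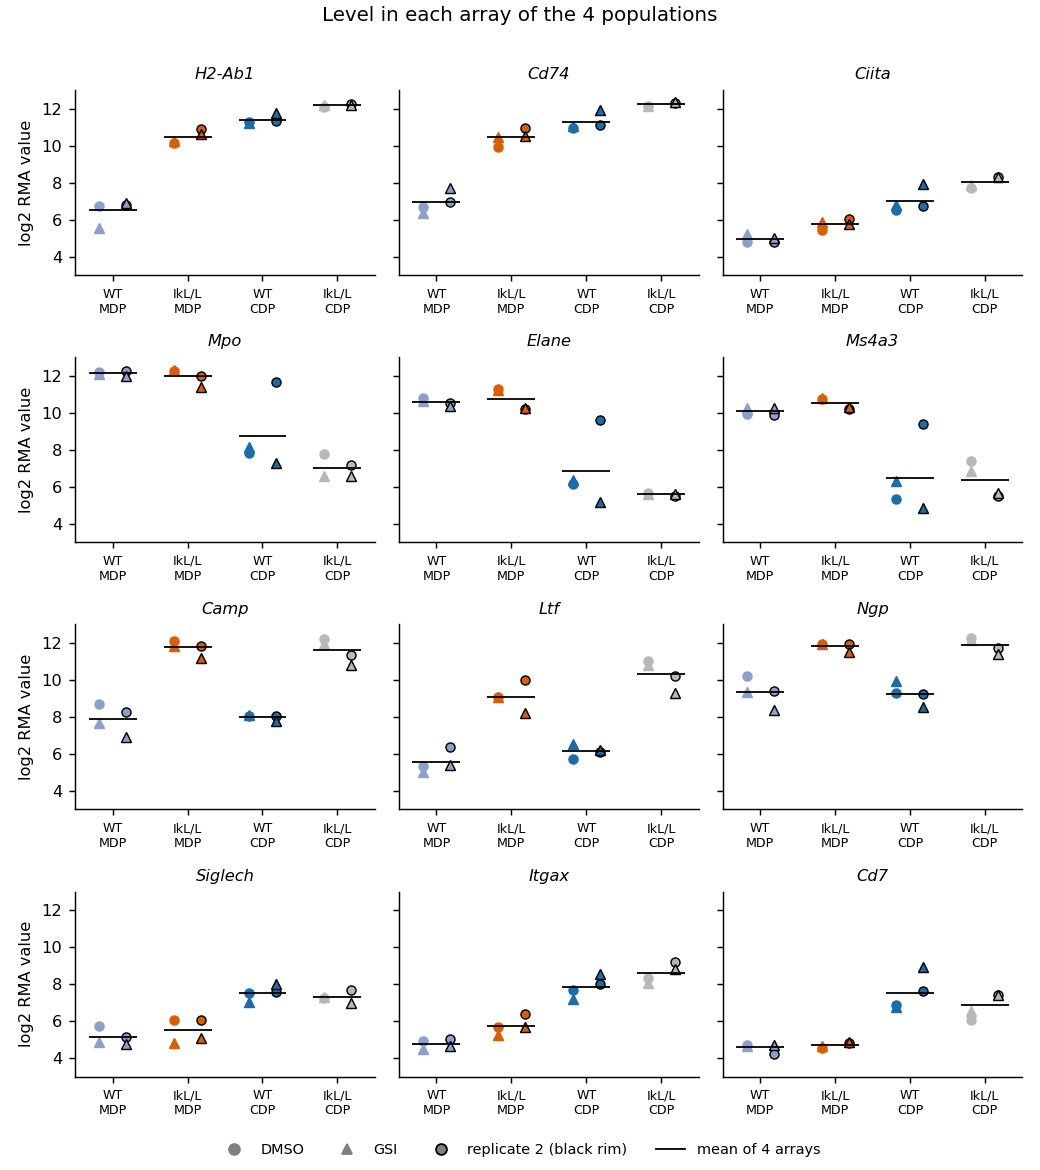
Log2 signal of 12 genes in each array of WT MDPs, IkL/L MDPs, WT CDPs and IkL/L CDPs (circles DMSO, triangles GSI, black rim replicate 2, line the mean of 4). Camp, Ltf and Ngp are higher in each IkL/L MDP array than in any array of the WT populations. Mpo, Elane and Ms4a3 are far lower in WT CDPs than in MDPs of either genotype, except in WT CDP DMSO 2. Siglech, Itgax and Cd7 are higher in each WT CDP array than in any IkL/L MDP array.

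Other genes with the largest rises in IkL/L MDPs had various roles. Ppic, the prolyl isomerase cyclophilin C, had the largest fold of all genes called without overlap. It was at 9.76, 9.38, 9.66 and 9.20 in IkL/L MDPs and at 4.40, 5.76, 4.42 and 4.55 in WT CDPs, 26.3-fold higher (log2 4.72 ± 0.29, adjusted p = 9.41e-05). It was the only one of the 30 ranked genes still called when DMSO and GSI arrays were averaged first (adjusted p = 0.0342), where for example Camp and Siglech were at 0.0701, Fcnb at 0.102 and Elane at 0.107. Ppic differed from WT MDPs by -1.38 in WT CDPs (adjusted p = 0.0659) and by 3.34 in IkL/L MDPs (adjusted p = 0.000634).

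Fcnb, ficolin B, a lectin of myeloid cells that recognizes microbial sugars, was at 10.42, 9.73, 10.38 and 9.60 in IkL/L MDPs and at 6.62, 6.27, 5.88 and 4.92 in WT CDPs. It was 17.2-fold higher (log2 4.11 ± 0.35, adjusted p = 0.000971), with every IkL/L MDP array above every WT CDP array, and it stood above WT MDPs by 2.84 on the log2 scale (adjusted p = 0.00627). Prg2, the major basic protein of eosinophils, was at 11.63, 10.05, 10.69 and 8.87 against 7.96, 7.82, 6.03 and 4.66 (log2 3.69 ± 0.58, adjusted p = 0.0139), and it was the only one called of 19 basophil, mast cell and eosinophil genes. Without IkL/L MDP DMSO 1 its adjusted p was 0.0688.

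The remaining genes of the 15 largest rises were Lrg1, a leucine-rich glycoprotein of neutrophil granules (10.3-fold), Mgst2, a microsomal glutathione S-transferase (8.32-fold), Pglyrp1, a peptidoglycan recognition protein (7.78-fold), and Il1f9, the cytokine IL-36 gamma (6.90-fold). Their adjusted p-values were 0.00421, 0.0279, 0.0101 and 0.0279. Lrg1 kept its call without any single array, and the other 3 lost it without IkL/L MDP DMSO 1 (adjusted p = 0.127, 0.0554 and 0.127).

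Genes of pDCs were lower in IkL/L MDPs than in WT CDPs. Of 21 measured, 5 were called lower (0.567% over all genes) and none higher, and 17 were lower in mean (median -0.56). The arrays of 10 did not overlap (7.77% over all genes). With an estimated correlation 2 of the 5 called genes passed, Siglech and Ccr9. The other 3 did not (adjusted p = 0.0762 for Atp1b1, 0.061 for Cox6a2 and 0.0688 for Cd209d). Siglech was at 6.06, 6.06, 4.82 and 5.08 in IkL/L MDPs and at 7.50, 7.57, 7.01 and 8.03 in WT CDPs. The groups did not overlap and Siglech was 4.07-fold lower (log2 -2.02 ± 0.21, adjusted p = 0.0025). It differed from WT MDPs by 2.41 in WT CDPs (adjusted p = 0.000684) and by 0.39 in IkL/L MDPs (adjusted p = 0.665).

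The other pDC genes called were Cd209d (above), Atp1b1, a sodium pump subunit (2.99-fold lower), Cox6a2, a cytochrome c oxidase subunit (2.68-fold lower), and Ccr9, a chemokine receptor (1.69-fold lower), at adjusted p-values of 0.0354, 0.0391 and 0.0107, and of up to 0.134, 0.157 and 0.0615 without IkL/L MDP DMSO 1 or IkL/L MDP GSI 1. Atp1b1 and Cox6a2 lost their calls without 12 and 14 of the 16 single arrays. Ccr9 was near or below the array medians in all 8 arrays (3.77 to 4.0 in IkL/L MDPs and 4.46 to 4.85 in WT CDPs), so its fold rests on weak signal. Tcf4, which encodes the E protein E2-2 that directs pDC fate, and Ly6d, a marker of lymphoid and pDC progenitors, had differences of -1.01 and -2.20 and did not pass the test (adjusted p = 0.0556 and 0.0515); both are named beyond the fixed rule, after their values were seen. The pDC genes called numbered between 1, without IkL/L MDP GSI 1, and 9, without WT CDP GSI 1, and were 2 or 3 without any other single array compared. Their mean per array was 5.72 to 6.01 in IkL/L MDPs, 6.28 to 6.87 in WT CDPs and 5.57 to 5.78 in WT MDPs.

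Among 30 cDC genes, 3 were lower and 1 higher (0.567% and 0.903% over all genes). Of the 30, 18 had an interval within 2-fold, a smaller share than the 95.5% over all genes. Itgax, the CD11c integrin chain that marks DCs, was at 5.70, 6.39, 5.23 and 5.70 in IkL/L MDPs and at 7.67, 8.0, 7.20 and 8.53 in WT CDPs. It was 4.27-fold lower without overlap (log2 -2.09 ± 0.31, adjusted p = 0.0116), and differed from WT MDPs by 3.06 in WT CDPs (adjusted p = 0.00152) and by 0.97 in IkL/L MDPs (adjusted p = 0.313). CD11c was also in the lineage stain before culture.

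Cd7, a surface glycoprotein of lymphoid and DC progenitors, was the gene with the largest fall. It was at 4.56, 4.84, 4.63 and 4.85 in IkL/L MDPs and at 6.86, 7.62, 6.76 and 8.93 in WT CDPs, 7.07-fold lower (log2 -2.82 ± 0.45, adjusted p = 0.0147). Dpp4, the peptidase CD26 of cDCs and T cells, was at 6.06, 6.20, 4.96 and 4.79 against 7.67, 8.26, 6.60 and 8.18, 4.51-fold lower (log2 -2.17 ± 0.31, adjusted p = 0.0101). Naaa, a lysosomal amidase of cDCs, was the cDC gene called higher (log2 0.77 ± 0.15, adjusted p = 0.0391, and 0.0726 with an estimated correlation), and its arrays overlapped. Naaa lost its call without 15 of the 16 single arrays. Itgax, Cd7 and Dpp4 lost their calls without IkL/L MDP DMSO 1 or without IkL/L MDP GSI 1, at adjusted p-values of up to 0.0623, 0.0744 and 0.0542.

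Klrd1, Klrk1 and Il7r, all receptors of NK or lymphoid cells, stood among the largest falls. Klrd1, the NK receptor chain CD94, was at 6.90, 8.02, 5.99 and 7.23 in IkL/L MDPs and at 8.97, 9.72, 8.09 and 9.96 in WT CDPs, 4.44-fold lower (adjusted p = 0.0465, 0.195 without IkL/L MDP DMSO 1 and 0.0761 with an estimated correlation). Its call was lost without 15 of the 16 single arrays, including arrays outside the comparison. Klrk1, the receptor NKG2D, was at 4.35, 4.94, 4.04 and 4.14 against 6.55, 7.22, 5.37 and 6.60, 4.19-fold lower (adjusted p = 0.00667). Il7r, the IL-7 receptor chain, was at 4.73, 5.06, 4.51 and 4.83 against 7.59, 6.12, 6.61 and 6.22, 3.62-fold lower (log2 -1.85 ± 0.26, adjusted p = 0.00902).

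None of the 3 overlapped between the groups. Against WT MDPs, Klrd1 differed by 4.72 in WT CDPs and by 2.57 in IkL/L MDPs (limma, adjusted p = 0.0305 for the latter). Klrk1 and Il7r differed from WT MDPs by -0.16 and 0.38 in IkL/L MDPs (limma, adjusted p = 0.915 and 0.756). Klrd1 was the only gene called of 18 T and NK cell genes, of which 17 had an interval within 2-fold (95.5% over all genes). The mean of the 18 genes per array was 4.26 to 4.33 in IkL/L MDPs and 4.31 to 4.52 in WT CDPs. Il7r was the only gene called of 10 cytokine receptors of progenitors, and its adjusted p was 0.054 without IkL/L MDP GSI 1.

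The other genes of the 15 largest falls covered several functions. Rtp4 and Samd9l are interferon-inducible (6.43-fold and 3.66-fold lower), P2ry10 is a G protein-coupled receptor of leukocytes (4.22-fold), Hpgds makes prostaglandin D2 (3.81-fold), Il1b is the cytokine IL-1 beta (3.42-fold), Tlr1 senses bacterial lipopeptides (3.26-fold) and Id3 inhibits E proteins (3.21-fold). Their adjusted p-values in this order were 0.0127, 0.00667, 0.0389, 0.0207, 0.00973, 0.00799 and 0.0246. Samd9l and Tlr1 kept their call without any single array. Rtp4, P2ry10, Hpgds, Il1b and Id3 did not, with adjusted p-values of up to 0.0663, 0.164, 0.0994, 0.0563 and 0.121 without IkL/L MDP DMSO 1 or IkL/L MDP GSI 1. P2ry10 lost its call without 14 of the 16 single arrays.

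**Figure D4:**
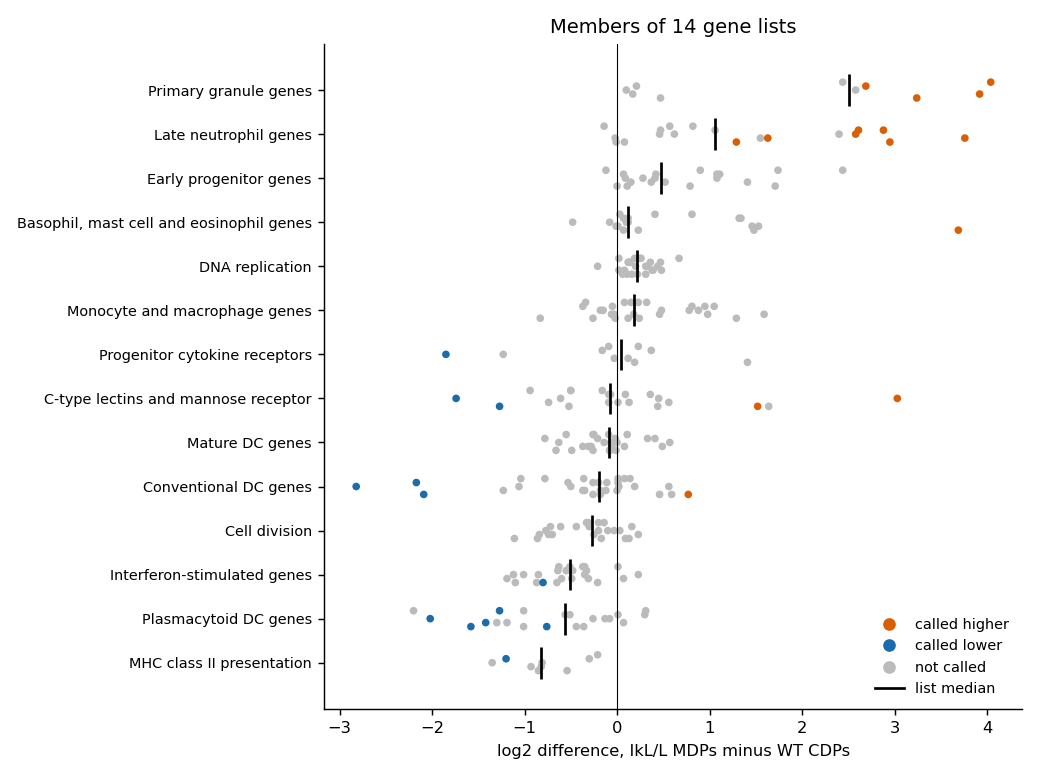
Log2 difference of IkL/L MDPs from WT CDPs for each measured member of 14 gene lists, with genes called higher orange, genes called lower blue, the rest grey and the list median a black tick. Primary granule and late neutrophil genes lie to the right (medians 2.51 and 1.06), class II and pDC genes to the left (-0.82 and -0.56), and mature DC genes near 0 (-0.09).

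The genes that set the sort gates gave no call in the fit used throughout. Kit, which encodes CD117 and was the basis for parting MDPs from CDPs, was at 7.99, 7.26, 7.55 and 5.94 in IkL/L MDPs and at 5.71, 6.64, 4.85 and 5.92 in WT CDPs (log2 1.41 ± 0.47, adjusted p = 0.215). Csf1r, which encodes CD115, differed by -0.03 ± 0.17 (adjusted p = 0.981), and Flt3, which encodes CD135, by -1.23 ± 0.32 (adjusted p = 0.108, and 0.0439 with a replicate block). The 20 early progenitor genes, Kit among them, had a median of 0.47 with 19 higher in mean. Limma called 0 of them, with 10 at an unadjusted p under 0.05, against 2413 of all 19938 genes.

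Ikzf1, the mutated gene, was at 8.55, 8.85, 8.52 and 8.36 in IkL/L MDPs and at 8.91, 8.95, 8.90 and 9.15 in WT CDPs. The arrays did not overlap, but the difference of -0.41 ± 0.10 did not pass the test (adjusted p = 0.0779), and a probe set outside the altered part of the gene would not check the allele. Eng, which encodes the TGF-beta co-receptor endoglin, was at 7.70, 7.63, 7.79 and 7.21 in IkL/L MDPs and at 6.16, 6.68, 5.25 and 6.08 in WT CDPs, 2.90-fold higher (log2 1.53 ± 0.19, adjusted p = 0.00562). It kept its call without any single array, with an adjusted p of up to 0.0343, and lost it when DMSO and GSI arrays were averaged first (adjusted p = 0.155). Eng was the only gene called of 21 TGF-beta receptors and SMADs. Of the 21, 20 had an interval within 2-fold, near the 95.5% over all genes.

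Several pathways held few or no calls. Of 18 Notch genes 1 was called, Uaca, a target gene with a rise of 0.50 ± 0.10 (adjusted p = 0.0458, 0.172 without IkL/L MDP GSI 1 and 0.173 with an estimated correlation). Its call was lost without 14 of the 16 single arrays. Of the 18 Notch genes 17 had an interval within 2-fold, near the 95.5% over all genes. All 18 NF-kB genes had such an interval, and limma called none, with 1 at an unadjusted p under 0.05. Limma also called none of 27 mature DC genes, 27 monocyte and macrophage genes, 24 cell division genes and 25 DNA replication genes. Of these, 6, 3, 6 and 1 were at an unadjusted p under 0.05, against 2413 of all 19938 genes. Intervals within 2-fold were found for 22, 9, 16 and 18 of them, each a smaller share than the 95.5% over all genes. The replication genes were higher in mean in IkL/L MDPs for 24 of 25 (median 0.22) and the division genes lower for 19 of 24 (median -0.27).

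Interferon-stimulated genes were lower in mean for 22 of 25 (median -0.51), and the arrays of 8 did not overlap (7.77% over all genes). Xaf1, an interferon-induced promoter of apoptosis, passed the test (1.75-fold lower, log2 -0.80 ± 0.14, adjusted p = 0.0229, and 0.107 without IkL/L MDP GSI 1). Of 19 immediate early and stress genes 2 were called lower (0.567% over all genes). Jun, a subunit of AP-1, was at 6.50, 6.86, 6.47 and 6.57 in IkL/L MDPs and at 8.11, 7.36, 7.72 and 7.90 in WT CDPs (2.26-fold, adjusted p = 0.00667), and Dusp1, a phosphatase of MAP kinases, was 1.92-fold lower (adjusted p = 0.00718). Neither overlapped between groups. These genes can respond to sorting, and whether handling took part was not tested.

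Of 23 chemokines and receptors Ccr9 alone was called, and limma called none of the 5 Ikaros family genes or the 4 sex-linked genes, with 2 and 1 at an unadjusted p under 0.05. It also called none of 16 B cell genes or 17 erythroid and megakaryocyte genes, with 6 and 3 at an unadjusted p under 0.05. An interval within 2-fold was found for 14 and 13 of them, smaller shares than the 95.5% over all genes. The mean of the B cell genes per array was 4.44 to 4.55 in IkL/L MDPs and 4.45 to 4.88 in WT CDPs.

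GSI changed the comparison for no gene by the test. Limma called 0 of 19938 genes (0%) for the difference between the DMSO and the GSI contrast, with 351 at an unadjusted p under 0.05. The interval of that difference lay within 2-fold for 17102 genes (85.8%). With DMSO arrays alone in the contrast 8 genes were higher and none lower, and with GSI arrays alone 28 were higher and 6 lower. Siglech differed by -1.48 ± 0.30 with DMSO and -2.57 ± 0.30 with GSI, and the difference of -1.09 ± 0.42 did not pass the test (adjusted p = 1).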

How the data were processed

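Values were the log2 signals deposited by the authors, who ran RMA (background correction, normalization between arrays and a summary per probe set) on the Affymetrix Mouse Gene ST arrays. The submitters name Affymetrix Expression Console 1.4.1 as the tool. RNA of 0.69 to 20 ng had been amplified with NuGEN kits. A build for the probe annotation was not given in the sources used here. Of 28188 probe sets, 21789 carried 1 symbol, 1621 several and 4778 none, and only the first were used. Identifiers were matched for 21698 of them in the mouse gene table, which changed 0 symbols. For the 999 genes with several probe sets the one with the highest mean was kept, which left 19938 genes, and no filter on signal was applied. Background signals were not used here. Precision depends on the spread between arrays and on how many arrays there are.

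With R 4.3.3, limma 3.58.1 and statmod 1.5.0, a model of 8 group means was fitted across the 16 arrays, leaving 8 residual degrees of freedom, and contrasts averaged over DMSO and GSI were tested with two-sided moderated statistics (eBayes) and Benjamini-Hochberg adjustment over all genes, threshold 0.05. The design was checked on simulated data with errors independent between arrays. That check could not show what a correlation between DMSO and GSI arrays does to the calls. Errors are standard errors of the fit, and intervals are 95% intervals. Groups came from the labels. Stage genes were those over 2-fold apart between WT CDPs and WT MDPs, without overlap of arrays, under one treatment, and were read on the arrays of the other.

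Named genes were the 15 largest rises and 15 largest falls among genes called without overlap of arrays, up to 4 called members of each of 25 lists (otherwise up to 2 with the largest differences), Ikzf1, Eng and the gate genes. The comparison, members and lists were chosen with earlier results of these data known. Alternatives were other fits, normalizations, probe set rules, filters, a replicate block and leaving out each array. Genes without a probe set of 1 symbol, such as Ly6c2, were not analysed here.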

Additional observations from a re-analysis of the deposited data

Results flagged for a closer look

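For the 30 genes with the largest changes, 60 gene and population pairs of 4 arrays were examined for a single array far from the other 3, and 6 were found. Chance gives about 1 in 20 such groups. In WT CDPs, Ppic was highest in DMSO 2 at 5.76, Camp was lowest in GSI 2 at 7.78, Mgl2 was lowest in DMSO 1 at 5.38 and Cd209a was highest in GSI 2 at 9.93. In IkL/L MDPs, Lcn2 and Ngp were lowest in GSI 2, at 11.31 and 11.49.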

How the results depend on the processing

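The number of calls depended on the fit. Against 180 genes higher and 113 lower, the fit of the 8 compared arrays gave 42 and 14, treat against 1.5-fold gave 9 and 1, a fold change over 1.5-fold alone gave 362 and 287, DMSO arrays alone gave 8 and 0 and GSI arrays alone gave 28 and 6. Centring the arrays on their medians gave 129 and 75, and quantile normalization again gave 156 and 137. Leaving out single arrays gave 47 to 178 higher and 13 to 116 lower. Counts moved by over 1.5 times without WT CDP DMSO 1 (84 and 44), WT CDP GSI 2 (105 and 58), IkL/L MDP GSI 2 (93 and 30) and either IkL/L CDP GSI array (71 lower), beside the arrays named in the report. Stage genes chosen with GSI arrays had median differences from WT CDPs of -0.57 and 0.57.

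Deviations of same-numbered arrays correlated above 0.1 in 16 of 28 pairs of groups (r from -0.254 to 0.658). These included all 6 pairs of WT groups (0.14 to 0.585), whereas the DMSO and GSI groups of IkL/L MDPs stood at -0.02, so the numbers were not taken to pair the samples throughout. A replicate block gave 252 higher and 176 lower, and 176 and 112 of the genes called without it were among them. Flt3, Nkg7, Ikzf2, Trem2 and Tfrc passed with the replicate block (adjusted p = 0.0439, 0.0277, 0.0418, 0.0186 and 0.0282). The treatment difference stayed at 0 calls with the block (443 genes at an unadjusted p under 0.05), and at 0 to 0 without single arrays. WT CDPs against WT MDPs (135 higher and 31 lower) gave 229 and 80 with the replicate block and 61 to 227 and 6 to 89 without single arrays. IkL/L MDPs against WT MDPs (107 and 12) gave 163 and 18 with the replicate block and 35 to 226 and 0 to 58.

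After the data were seen, 4 alternatives were added. A random block of population and number (correlation 0.292) gave 86 and 37, averaging DMSO and GSI arrays first gave 6 and 1, leaving out both WT CDP arrays numbered 1 gave 151 and 110, and leaving out both numbered 2 gave 222 and 221.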
